A study of Homo sapiens with 24 samples.

Results

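The genes described here are 40 genes of DNA replication and nucleotide synthesis, chosen by name from a fixed list and matched to the human lung cancer line tables by Ensembl identifier. They are 40 of 60623 genes listed in any table. All 40 were found in each of the 4 tables, and all 40 passed the filter on low values in each. The list holds 16 genes of the replicative helicase with its loaders and activators, 7 of the polymerases and primase, 8 of the sliding clamp, its loaders and Okazaki fragment joining, 4 of nucleotide synthesis, and 5 of chromatin assembly, checkpoint signalling and transcription. The study measured RNA in bulk from 4 lung cancer cell lines in which the immunoglobulin superfamily gene HEPACAM2 was altered, with 3 libraries per group and 24 libraries in all. In A549, a lung adenocarcinoma line, and in NCI-H1299 (H1299 below), a non-small cell line, libraries titled OE (genotype HEPACAM2 overexpressed) were set against control libraries of wild-type genotype. In DMS454 and NCI-H1694 (H1694 below), which the labels call small cell lines, libraries titled CRISPR (genotype HEPACAM2 knockdown) were set against control libraries of wild-type genotype. The vectors, the guides, and whether each line was a clone or a pool are not stated by the labels. Replicates are described as biologically independent.

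Before a cell copies its DNA, the origin recognition complex with CDC6 and CDT1 loads rings of MCM proteins onto origins, and CDC45, the GINS complex and MCM10 turn them into active helicases. Primase and the polymerases then copy both strands, the PCNA clamp, placed by replication factor C, holds the polymerases on DNA, and FEN1 and LIG1 process and join Okazaki fragments. Ribonucleotide reductase, thymidylate synthase and thymidine kinase supply deoxynucleotides. Many of these genes are transcribed together towards S phase under E2F factors, which are held back by the RB family, so their RNA levels in a culture are widely used as a readout of proliferation.

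Promoter sequence was shown for 6 genes that stood out by how their RNA behaved in the lines, so that the E2F-type letters can be read beside the values. RefSeq windows of 300 bases (GRCh38.p14, 250 bases before the start site and 50 after it) were found for 35 of the 40 genes, in 46 windows, since some genes have several starts. MCM4, MCM5, GINS4, DSCC1 and E2F8 were not matched. Both strands were searched for the E2F-type letters TTTCCCGC, TTTGGCGC, TTTCGCGC and TTTGCCGC and for CCAAT, the letters bound by NF-Y, and matches could overlap. E2F-type letters were present in 20 of the 46 windows (43.48%), against 3.315% of all 35116 RefSeq windows of the same length. CCAAT was present in 58.7% of the 46 windows and in 34.61% of all windows. By gene, 19 of 35 had E2F-type letters and 21 of 35 had CCAAT. A letter match is a description of the sequence and not a measured binding site. PCNA and UHRF1 have several windows, and the one with the most letter matches is shown. The other PCNA window held no E2F-type letters, and another UHRF1 window held neither kind. In the lines below, each sequence is given 5′ to 3′ on the gene's strand, upstream of a RefSeq start site, and capitals mark E2F-type or CCAAT letters on either strand.
MCM10 (chr10:13161398-13161553, plus strand): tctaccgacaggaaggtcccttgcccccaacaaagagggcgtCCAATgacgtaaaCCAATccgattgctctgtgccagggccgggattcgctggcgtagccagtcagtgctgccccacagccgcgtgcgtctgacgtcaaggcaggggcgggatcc
CLSPN (chr1:35769979-35770138, minus strand): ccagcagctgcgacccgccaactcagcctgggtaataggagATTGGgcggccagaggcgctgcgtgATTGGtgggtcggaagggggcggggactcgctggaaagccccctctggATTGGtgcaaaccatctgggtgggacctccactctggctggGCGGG
POLA1 (chrX:24693758-24693917, plus strand): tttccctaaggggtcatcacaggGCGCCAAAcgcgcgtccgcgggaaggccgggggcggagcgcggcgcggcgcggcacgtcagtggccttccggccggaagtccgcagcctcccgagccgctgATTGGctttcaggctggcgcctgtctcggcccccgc
PCNA (chr20:5126627-5126782, minus strand): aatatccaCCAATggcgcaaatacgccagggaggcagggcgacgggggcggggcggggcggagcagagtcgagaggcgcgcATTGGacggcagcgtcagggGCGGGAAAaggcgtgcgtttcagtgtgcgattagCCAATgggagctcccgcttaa
UHRF1 (chr19:4909984-4910143, plus strand): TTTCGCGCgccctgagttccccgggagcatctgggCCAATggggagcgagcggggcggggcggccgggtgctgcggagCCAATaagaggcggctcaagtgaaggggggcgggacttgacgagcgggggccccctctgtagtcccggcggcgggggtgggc
LIG1 (chr19:48170440-48170469, minus strand): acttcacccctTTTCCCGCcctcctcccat
The MCM10 stretch held CCAAT letters and no E2F-type match. In CLSPN the last 5 capitals belong to an E2F-type match that runs across the start site. The LIG1 stretch is the 30 bases around its E2F-type match. In the windows of genes that fell in H1299, 11 of 20 held E2F-type letters, and of the genes without a call there 7 of 14 did. In A549, 10 of the 16 genes with a window that rose held them, as did 8 of the 17 without a call.

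Each library held between 12704476 and 31770858 reads assigned to genes, and the values below are counts divided by 1 size factor per library. HEPACAM2 itself was checked first in every library. In A549 it was at 1.10, 0 and 0 normalized counts in the control libraries and at 6074, 5864 and 6084 in the OE libraries, and in H1299 at 3.49, 3.07 and 2.08 against 27257, 24999.9 and 23710.2. In DMS454 the control libraries were at 6430.1, 6543 and 6677 and the libraries labelled CRISPR at 11460.0, 11256 and 10844. In H1694 the control libraries were at 3433, 3551 and 3688 and the libraries labelled CRISPR at 10124, 10545 and 10399. HEPACAM2 RNA was therefore higher in the libraries labelled CRISPR in both small cell lines, by 0.77 and 1.54 on the log2 scale, which goes against a knockdown label at the RNA level. For this reason these groups are called the libraries labelled CRISPR and the libraries labelled control throughout, every direction in DMS454 and H1694 is the former minus the latter, and no direction there is tied to less HEPACAM2. In these lines the column names hold the letter G and a digit before the replicate number for the libraries labelled control, and pL for those labelled CRISPR. In the authors' deposited comparisons the libraries labelled control are the numerator in these lines, with HEPACAM2 at -0.77 in DMS454 and -1.54 in H1694. The OE libraries are the numerator in A549 and H1299, with HEPACAM2 at 14.1 and 13.1. What the letters in the column names stand for is not stated by the labels, and whether the titles were exchanged was not tested. The neuroendocrine markers INSM1 and SYP were at 25057 ± 299 and 3803 ± 190 normalized counts (SD, n = 3) in the DMS454 libraries labelled control and at 9947 ± 648 and 8206 ± 193 in those of H1694. KRT8 and CDH1, which mark epithelial cells, were at 6.24 and 7.27 in H1694, and CDH5, an endothelial marker, was at 3127 there. The summed level of the blood markers was at most 5.14 in any group.

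Libraries also stood apart within groups. In H1299, control replicate 1 had a read-weighted mean GC content of 48.97% against 47.91% and 47.84% in the other control libraries, and OE replicate 1 had 48.14% against 49.25% and 49.22% in the other OE libraries. In DMS454 replicate 3 of the libraries labelled CRISPR, and in H1694 replicate 1 of the libraries labelled CRISPR, lay farthest from their group, with chi-square values per gene of 14.4 and 18.8, and 17.2 and 23.9, against their 2 partners, and of 3.09 and 3.22 between the partners. The results that rest on these libraries are given with and without them.

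HEPACAM2 overexpression went with higher RNA of many replication genes in A549 and with lower RNA of most in H1299, while 10 and 8 of the 40 were called in the small cell lines DMS454 and H1694. In A549, 19 of the 40 rose and 3 fell (limma on log2 of the normalized count plus 1, Benjamini-Hochberg adjusted p under 0.05 over all genes tested), where 44.4% of all 16707 genes were called, 22.5% higher and 21.9% lower. The rises in A549 were small, with a median over the 40 genes of 0.10 on the log2 scale and a largest value of 0.51. In H1299, 1 gene rose and 24 fell, where 28.8% of 16192 genes were called, 13.5% higher and 15.3% lower, and the median over the 40 was -0.34. In DMS454, 3 rose and 7 fell, where 18.9% of 18868 genes were called, 9.15% higher and 9.72% lower. In H1694, 7 rose and 1 fell, where 17.6% of 17780 genes were called, 8.73% higher and 8.9% lower. The medians over the 40 genes were -0.02 in DMS454 and 0.05 in H1694, against a median within 0.002 of 0 over all genes in each line. Of the 40, 7.5% rose and 17.5% fell in DMS454 and 17.5% rose and 2.5% fell in H1694. Falls in DMS454 and rises in H1694 were thus more frequent than among all genes, and falls in H1694 were less frequent. The share of rises in DMS454 was near that of all genes. Without replicate 3 labelled CRISPR, 8 of the 40 rose there, where 16.7% of all genes were called higher. Whether these shares differ from those of all genes was not tested.

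**Figure D1:**
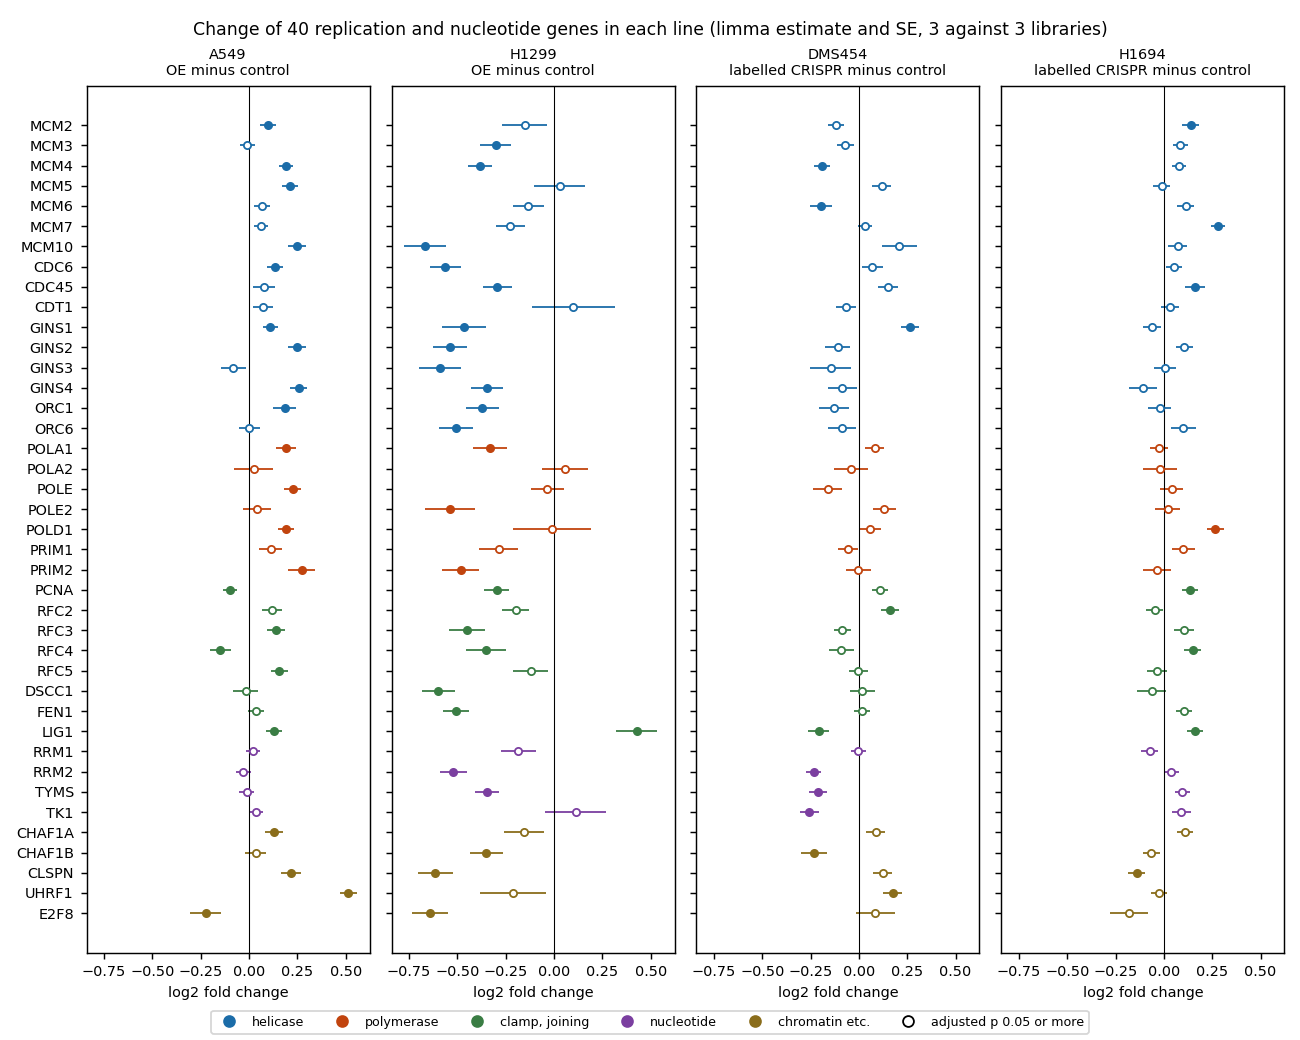
Log2 fold change (limma estimate, bars are the standard error, 3 against 3 libraries) of each of the 40 genes in A549, H1299, DMS454 and H1694, coloured by role and open where the adjusted p was 0.05 or more. The points lie mostly right of 0 in A549 and mostly left of 0 in H1299, with LIG1 the filled point on the right in H1299, and they lie within 0.3 of 0 in DMS454 and H1694.

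The same shift was seen library by library. Relative to the mean of the control libraries, the median over the 40 genes was 0.10, 0.08 and 0.12 in the A549 OE libraries, and 30, 29 and 36 of the 40 genes lay above the control mean. In the H1299 OE libraries it was -0.33, -0.35 and -0.36, and 39, 32 and 34 of the genes lay below the control mean. In DMS454 it was -0.05, -0.04 and 0.03 in the libraries labelled CRISPR, so replicate 3 lay on the other side of 0 from its partners. In H1694 it was 0.08, 0.03 and 0.06. In bulk RNA, fewer cells in S phase and less RNA of these genes per cell cannot be told apart.

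**Figure D2:**
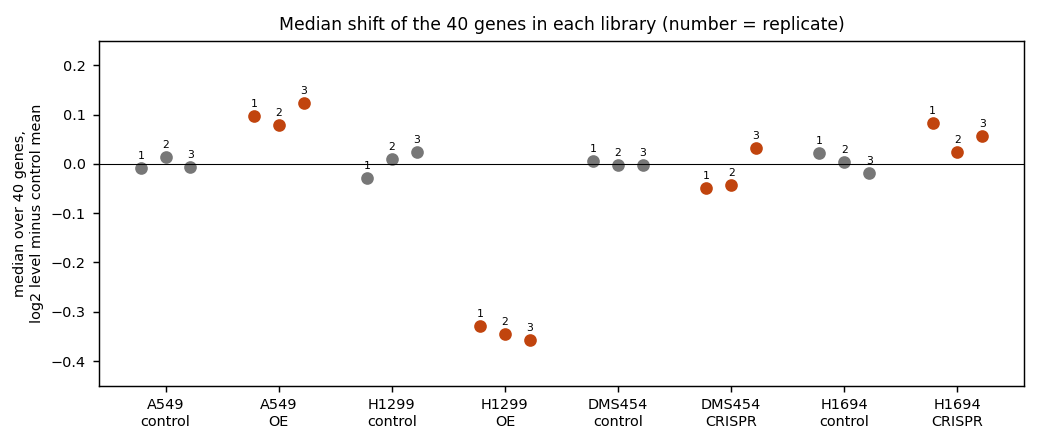
Median over the 40 genes of the log2 level minus the mean of the line's control libraries, 1 point per library, with the replicate number above it (grey, control; orange, OE or labelled CRISPR). The 3 H1299 OE libraries sit between -0.36 and -0.33, and the 3 A549 OE libraries between 0.08 and 0.12.

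Markers of cell state changed in the same libraries. In A549, 5 of 6 epithelial markers fell and 1 rose, with EPCAM lower by 1.01 ± 0.08 and CDH1 by 0.74 ± 0.05, and the summed level of the 6 went from 218614 to 199396 normalized counts. Of 3 mesenchymal markers, VIM and CDH2 rose in both overexpression lines, VIM by 0.53 ± 0.03 in A549 and 0.81 ± 0.07 in H1299, and the summed level went from 15606 to 22619 and from 61315 to 106770. In H1299, 1 of 5 epithelial markers, KRT7, rose, from a mean of 28.5 to 60.1 normalized counts. EPCAM and KRT19 were too low to be tested there, and KRT8 and KRT18 were not called. Every OE library of KRT18 lay below every control (limma adjusted p = 0.074), and the summed level of the 5 went from 17822 to 15708. In DMS454, CHGA, CHGB and NEUROD1 rose and NCAM1 fell by 0.70 ± 0.09 among the neuroendocrine markers, KRT19 fell by 0.53 ± 0.04 and KRT7 by 0.20 ± 0.04, and CDH2 rose by 0.40 ± 0.06. In H1694, 2 of 6 epithelial markers, KRT18 and KRT19, fell from low levels, CHGB fell by 0.58 ± 0.04 and NCAM1 by 0.26 ± 0.05, DLL3 rose by 0.51 ± 0.06, CDH2 rose by 0.21 ± 0.05 and CDH5 by 0.25 ± 0.04. Their part in the changes of the replication genes was not tested.

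Among the helicase genes, 9 of 16 rose and none fell in A549, and 11 of 16 fell and none rose in H1299. MCM10, which takes part in activating the loaded helicase, was at 1188, 1149 and 1147 normalized counts in the A549 control libraries and at 1368, 1353 and 1416 in the OE libraries. All 3 OE libraries lay above all 3 controls, a rise of 0.25 ± 0.05 (SE) on the log2 scale (limma, adjusted p = 2.4e-05). In H1299 it was at 867, 1017 and 1009 in the control libraries and at 679.7, 601 and 544 in the OE libraries. There every OE library was below every control and MCM10 fell by 0.67 ± 0.11 (adjusted p = 0.0025), the largest fall among the 40 genes in any line. GINS2, a GINS subunit, was at 1135, 1097 and 1138 against 1318, 1345 and 1337 in A549 and at 1175, 1339 and 1385 against 927, 912 and 844 in H1299. It rose by 0.25 ± 0.05 in A549 (adjusted p = 2.7e-05) and fell by 0.54 ± 0.09 in H1299 (adjusted p = 0.0027), with no overlap of the groups in either line. The 4 GINS genes all fell in H1299, and 3 of the 4 rose in A549. GINS4 was at 1377, 1311 and 1293 in the A549 controls and at 1570.2, 1612 and 1572 in the OE libraries. GINS3, the member that did not pass in A549 (-0.08), was at 366, 399.7 and 415 in the H1299 controls and at 283, 264 and 237 in the OE libraries, and fell by 0.59 ± 0.11.

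CDC6, an origin loader, was at 2120.5, 2151 and 2143 normalized counts in the A549 controls and at 2404, 2277 and 2361 in the OE libraries. In H1299 its control libraries were at 1232, 1308 and 1302 and its OE libraries at 839, 939.6 and 825. The CDC6 groups did not overlap in either line, with a rise of 0.13 ± 0.04 in A549 (adjusted p = 0.0065) and a fall of 0.56 in H1299, where the estimate was -0.56 ± 0.08 (adjusted p = 0.0015). ORC1, a subunit of the origin recognition complex, rose by 0.18 in A549 and fell by 0.37 in H1299, and ORC6 fell by 0.50 in H1299 with an estimate of 0.00 in A549. The 6 MCM ring genes moved less evenly. MCM2, MCM4 and MCM5 rose in A549, by 0.10, 0.19 and 0.21, and MCM3 and MCM4 fell in H1299, by 0.30 and 0.38. The A549 call of MCM2 was lost with DESeq2 (adjusted p = 0.082), without the filter on low values (adjusted p = 0.056) and in all fits that left out 1 library other than control replicate 2 (adjusted p between 0.062 and 0.19). CDT1, which works with CDC6, was at 2804, 1781 and 1845 in the H1299 controls and at 1701, 2533 and 2629.7 in the OE libraries. Its control replicate 1 lay with OE replicates 2 and 3, its OE replicate 1 lay with the other controls, and its estimate of 0.10 ± 0.21 did not pass (adjusted p = 0.76).

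In DMS454, GINS1 rose and MCM4 and MCM6 fell, and the other 13 helicase genes were not called. GINS1 was at 2152, 2144 and 2072 normalized counts in the libraries labelled control and at 2512, 2645 and 2493 in those labelled CRISPR, a rise of 0.26 ± 0.05 (adjusted p = 0.0018) with no overlap. MCM6 was at 2069, 2060.3 and 2045 in the libraries labelled control and at 1734, 1709 and 1955 in those labelled CRISPR. It fell by 0.20 ± 0.06 (adjusted p = 0.027), and replicate 3 of the libraries labelled CRISPR was nearest to the controls. MCM6 lost its call whenever a single library other than replicate 3 labelled CRISPR was left out (adjusted p between 0.09 and 0.12). MCM10 was at 350.3, 352 and 369.9 and 373, 419 and 451. The MCM10 groups did not overlap, and the estimate of 0.21 ± 0.09 did not pass (adjusted p = 0.12).

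In H1694, MCM7, MCM2 and CDC45 rose and none of the 16 fell. MCM7 was at 12409.8, 12141 and 11759.9 normalized counts in the libraries labelled control and at 14955, 14699 and 14438 in those labelled CRISPR, with every library of the latter above every library of the former. Its rise of 0.28 ± 0.04 (adjusted p = 7.2e-05) was the largest of the 40 genes in that line. CDC45, a core part of the active helicase, was at 1297, 1261 and 1273 against 1429, 1500.3 and 1356, and MCM2 was at 7678, 7550.3 and 7493 against 8807, 8280.5 and 7942. They rose by 0.16 ± 0.05 and 0.14 ± 0.04 (adjusted p = 0.04 and 0.033). Both calls were lost without any 1 control or without replicate 2 labelled CRISPR (adjusted p between 0.09 and 0.19 for CDC45 and 0.092 and 0.12 for MCM2), and that of CDC45 also with DESeq2 (adjusted p = 0.087) and without the filter on low values (adjusted p = 0.059). MCM6 and GINS1, which were called in DMS454, were at 4789, 4539.5 and 4436 and 1937, 1823 and 1829 in the H1694 libraries labelled CRISPR, against 4190.3, 4368 and 4175 and 1885, 1968 and 1980.4 in those labelled control, and did not pass there. MCM10 was at 1339.9, 1314 and 1262 and 1373, 1322 and 1418, and its groups overlapped.

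Of the 7 polymerase and primase genes, 4 rose in A549 and 3 fell in H1299. PRIM2, the large primase subunit, was at 484, 488 and 439 normalized counts in the A549 controls and at 626, 523 and 558 in the OE libraries, and at 993, 1196 and 1115 against 856, 735 and 769 in H1299. It rose by 0.27 ± 0.07 (adjusted p = 0.0013) in A549 and fell by 0.48 ± 0.10 (adjusted p = 0.0068) in H1299, without overlap of the groups. POLE, the catalytic subunit of the leading strand polymerase, was at 2666, 2659.7 and 2885 in the A549 controls and at 2996, 3301 and 3307 in the OE libraries, a rise of 0.23 ± 0.04 (adjusted p = 2.2e-05). In H1299 its groups overlapped, at 2806, 2398 and 2639 against 2540.3, 2740.5 and 2377. Its partner subunit POLE2 was called only in H1299. It was at 348, 369 and 412 in the H1299 controls and at 304, 246 and 231 in the OE libraries and fell by 0.54 ± 0.13 (adjusted p = 0.015), and in A549 its groups overlapped. The POLE2 call was lost without control or OE replicate 2 or 3 (limma adjusted p between 0.052 and 0.068) and with the replicate number as a block (0.086). The change in H1299 minus that in A549 was -0.26 for POLE (limma adjusted p = 0.054) and -0.58 for POLE2 (0.0065). POLA1, the catalytic subunit of the primase-bound polymerase, rose by 0.19 in A549 and fell by 0.33 in H1299, and POLA2, its partner, was not called in any of the 4 lines.

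None of the 7 was called in DMS454, and POLD1 was the only 1 of the 7 called in H1694. POLD1, the catalytic subunit of the lagging strand polymerase, was at 3238, 3071 and 3267 normalized counts in the H1694 libraries labelled control and at 3717, 3902 and 3898 in those labelled CRISPR. The groups did not overlap and POLD1 rose by 0.27 ± 0.04 (adjusted p = 4.3e-04). In H1299 POLD1 was at 1074, 768 and 754 in the controls and at 629.7, 990.0 and 974 in the OE libraries, where both libraries numbered 1 lay with the opposite group.

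The sliding clamp gene PCNA was lower with HEPACAM2 overexpression in both A549 and H1299. It was at 7205, 7175 and 6925 normalized counts in the A549 controls and at 6707, 6452 and 6754 in the OE libraries, and fell by 0.10 ± 0.04 (adjusted p = 0.024). In H1299 it was at 2476, 2630.3 and 2566 against 2080.1, 2114 and 2051 and fell by 0.30 ± 0.07 (adjusted p = 0.01). No OE library reached any control in either line. PCNA thus fell in A549 while 9 helicase genes rose there. In DMS454 it was at 10623, 10552 and 10905 in the libraries labelled control and at 11784, 11819 and 11006 in those labelled CRISPR, and the estimate of 0.11 ± 0.04 did not pass (adjusted p = 0.074). In H1694 it was at 5104, 5065 and 4919 against 5703, 5442 and 5423, without overlap, and rose by 0.13 ± 0.04 (adjusted p = 0.028). The A549 call of PCNA was lost without control replicate 1 or OE replicate 2 (adjusted p = 0.12 and 0.14), the H1299 call without control replicate 2 or 3 or OE replicate 3 (adjusted p between 0.051 and 0.057), and the H1694 call without any 1 control or without replicate 2 labelled CRISPR (adjusted p between 0.067 and 0.12).

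Of the clamp loader genes RFC2 to RFC5, RFC3 and RFC5 rose and RFC4 fell in A549, and RFC3 and RFC4 fell in H1299. RFC4 was at 924, 988 and 950.3 normalized counts in the A549 controls and at 851, 861 and 868 in the OE libraries, below every control, and fell by 0.15 ± 0.05 (adjusted p = 0.019), a call lost without control replicate 2 or OE replicate 1 (adjusted p = 0.084 and 0.057) and with DESeq2 (adjusted p = 0.053). In H1694 RFC4 was at 2257, 2351 and 2367 in the libraries labelled control and at 2507, 2569 and 2658 in those labelled CRISPR. It rose there by 0.15 ± 0.04 (adjusted p = 0.028). That call was lost with DESeq2 (adjusted p = 0.064) and in all fits that left out 1 library other than replicate 1 labelled CRISPR (adjusted p between 0.058 and 0.14). RFC2 was at 1493, 1452 and 1421 against 1597, 1631 and 1653 in DMS454, a rise of 0.16 ± 0.05 (adjusted p = 0.034), and was called in no other line. The RFC2 call was lost with DESeq2 (adjusted p = 0.095) and without the filter on low values (adjusted p = 0.079). It was also lost in all fits that left out 1 library other than replicate 3 labelled CRISPR (adjusted p between 0.06 and 0.14). DSCC1, part of an alternative clamp loader that acts in sister chromatid cohesion, was at 701, 693 and 714 in the H1299 controls and at 492, 461 and 440.2 in the OE libraries. It fell by 0.60 ± 0.08 (adjusted p = 0.0013) and was called in no other line. FEN1, the flap nuclease of Okazaki fragments, fell by 0.51 ± 0.07 in H1299 (adjusted p = 0.001) and was called in no other line.

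LIG1, the ligase that seals Okazaki fragments, was the only 1 of the 40 genes called in all 4 lines and the only 1 that rose in H1299. It was at 2299.8, 2348 and 2401 normalized counts in the A549 controls and at 2627, 2484 and 2600.4 in the OE libraries, and at 949, 783 and 772 against 1013, 1155 and 1197 in H1299. LIG1 rose by 0.13 ± 0.04 in A549 (adjusted p = 0.0082) and by 0.43 ± 0.11 in H1299 (adjusted p = 0.016), and the groups did not overlap. In DMS454 it was at 1158, 1179.7 and 1256 in the libraries labelled control and at 1013, 1035 and 1061 in those labelled CRISPR, and in H1694 at 3253, 3154 and 3336 against 3552, 3669 and 3669.7. It fell by 0.21 ± 0.06 in DMS454 (adjusted p = 0.02) and rose by 0.16 ± 0.04 in H1694 (adjusted p = 0.013), again without overlap. These calls are near the threshold: with 1 library left out LIG1 lost its call without control or OE replicate 1 in A549 (adjusted p between 0.052 and 0.057), without control or OE replicate 2 or 3 in H1299 (between 0.067 and 0.075), without control replicate 2 or 3 or replicate 1 or 2 labelled CRISPR in DMS454 (between 0.057 and 0.11), and without control replicate 1 or 2 or replicate 2 labelled CRISPR in H1694 (between 0.059 and 0.093).

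None of the 4 nucleotide synthesis genes was called in A549, where their log2 fold changes lay between -0.03 and 0.04. RRM2, the S phase subunit of ribonucleotide reductase, was at 4975, 5016 and 4990.1 normalized counts in the A549 controls and at 5014, 4651 and 5021 in the OE libraries, and the groups overlapped. In H1299 it was at 6017, 6684 and 6691 against 4451, 4598 and 4456, and it fell by 0.52 ± 0.07 (adjusted p = 0.0011) with no overlap. TYMS, which makes thymidylate, also fell in H1299, by 0.34 ± 0.06 (adjusted p = 0.0042). RRM1, the large reductase subunit, was not called in any of the 4 lines.

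In DMS454, 3 of these 4 genes fell, which made up 3 of the 7 falls among the 40 genes there. RRM2 was at 8283, 8240.4 and 8252 normalized counts in the libraries labelled control and at 7135, 7139.7 and 6792 in those labelled CRISPR. TYMS was at 2982, 3055 and 2893 against 2491, 2551 and 2668, and TK1, the thymidine salvage kinase, at 1827, 1863 and 1879.9 against 1529, 1634 and 1502. For all 3 genes each library labelled CRISPR lay below each library labelled control. TK1 fell by 0.26 ± 0.05 (adjusted p = 0.0038), RRM2 by 0.23 ± 0.04 (adjusted p = 0.0011) and TYMS by 0.21 ± 0.05 (adjusted p = 0.0067). In H1694 RRM2 was at 20245, 20229.7 and 19828 against 21711, 20381 and 19892. TK1 was at 1751, 1652 and 1655 against 1875, 1712 and 1795 and TYMS at 4616, 4525 and 4405 against 4889.7, 4781 and 4808 there, and none of the 3 passed.

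Among the genes of chromatin assembly, checkpoint and transcription, UHRF1, which recognises hemimethylated DNA behind the fork, showed the largest rise of the 40 genes in A549. UHRF1 was at 1639, 1674 and 1626 normalized counts in the A549 controls and at 2306, 2299 and 2454 in the OE libraries, a rise of 0.51 ± 0.04 (adjusted p = 3.3e-14) with no overlap. In H1299 it was at 3271, 2427 and 2541 in the controls and at 1833, 2698 and 2626 in the OE libraries. Control replicate 1 was the highest and OE replicate 1 the lowest, while OE replicates 2 and 3 lay above control replicates 2 and 3. The estimate of -0.21 ± 0.17 did not pass, and without both libraries numbered 1 it was 0.10 (adjusted p = 0.082), so its sign turned. GC content lined up with treatment in that fit. In DMS454 UHRF1 was at 1284, 1288 and 1313 against 1433, 1447 and 1508 and rose by 0.18 ± 0.05 (adjusted p = 0.026). That call was lost with DESeq2 (adjusted p = 0.068) and without the filter on low values (adjusted p = 0.058). It was also lost in all fits that left out 1 library other than replicate 3 labelled CRISPR (adjusted p between 0.06 and 0.1).

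CLSPN, the checkpoint mediator claspin that travels with the fork, was at 896, 936 and 937 normalized counts in the A549 controls and at 1096, 1040.1 and 1085 in the OE libraries, and at 1873, 2194 and 2329 against 1417, 1396 and 1349 in H1299. It rose by 0.22 ± 0.05 (adjusted p = 4.6e-04) and fell by 0.61 ± 0.09 (adjusted p = 0.0017), without overlap in either line. In H1694 it was at 2773, 2995 and 2955 in the libraries labelled control and at 2600.5, 2684 and 2621 in those labelled CRISPR, and its fall of 0.14 ± 0.04 (adjusted p = 0.036) was the only fall called among the 40 there. CLSPN was the only gene of the 40 that lost its H1694 call under edgeR on the recovered reads (adjusted p = 0.056).

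E2F8, a repressor of E2F target genes, fell in both overexpression lines. In A549 it was at 335, 340.4 and 336 normalized counts in the controls and at 293, 291 and 281 in the OE libraries, and in H1299 at 377, 359.8 and 374 against 242, 239 and 230.2. The estimates were -0.22 ± 0.08 (adjusted p = 0.021) and -0.64 ± 0.09 (adjusted p = 0.0016), with no overlap, and the A549 call was lost without OE replicate 3 (adjusted p = 0.061) and with DESeq2 (adjusted p = 0.07). In DMS454 it was at 570.2, 665 and 715 against 685, 775 and 609, and in H1694 at 209, 226 and 233 against 197, 187 and 204. Neither passed, although each H1694 library labelled CRISPR lay below each labelled control. CHAF1B, a subunit of the chromatin assembly factor that deposits histones behind the fork, was at 1140.5, 985 and 1037 in the DMS454 libraries labelled control and at 852, 912 and 928 in those labelled CRISPR, and fell by 0.23 ± 0.07 (adjusted p = 0.029). That call was lost without control replicate 1 or 3 or replicate 1 or 2 labelled CRISPR (adjusted p between 0.06 and 0.13). CHAF1A, the partner of CHAF1B, rose by 0.13 ± 0.05 in A549 and was called in no other line. The CHAF1A call was lost without control replicate 1 or 3 or OE replicate 1 (adjusted p between 0.054 and 0.083) and with DESeq2 (adjusted p = 0.06).

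**Figure D3:**
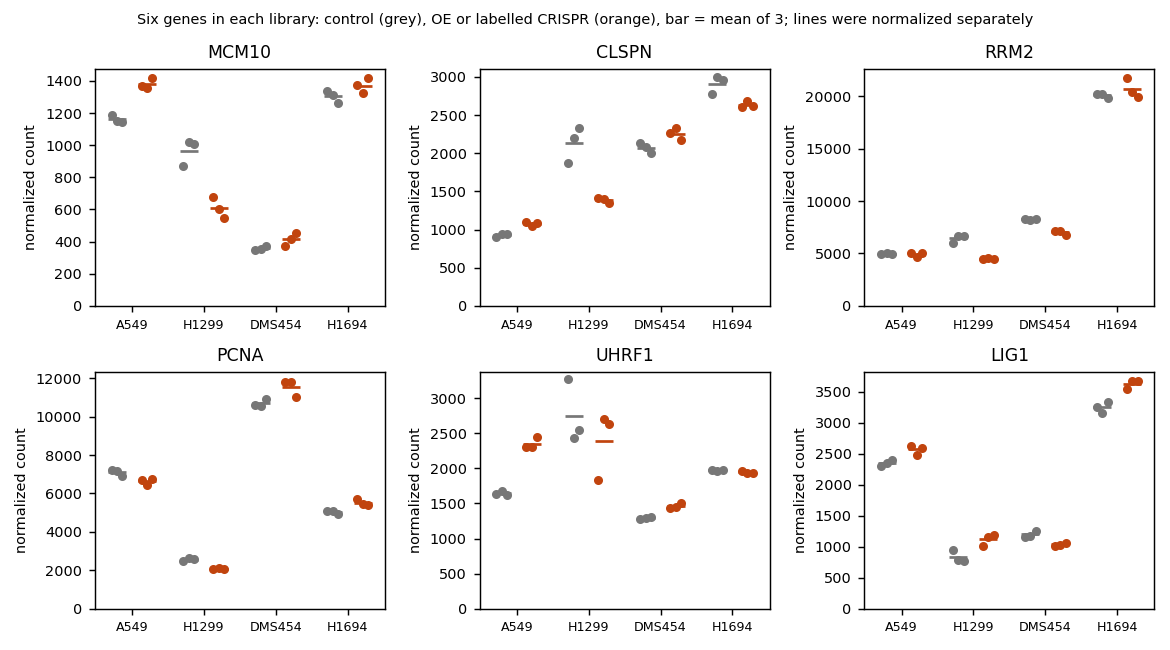
Normalized counts of MCM10, CLSPN, RRM2, PCNA, UHRF1 and LIG1 in every library (grey, control; orange, OE or labelled CRISPR; bar, mean of 3), with lines side by side that were normalized separately. MCM10 and CLSPN lie above control in A549 and below it in H1299, PCNA lies below control in both, and LIG1 lies above it in both; UHRF1 in H1299 overlaps.

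The groups did not overlap for 26 of the 40 genes in A549, 27 in H1299, 19 in DMS454 and 20 in H1694, where 51.8%, 43.3%, 36.6% and 35.0% of all genes tested did not. In A549, all OE libraries lay above all controls for 23 of the 40 and below for 3, where 26.1% and 25.7% of all genes tested did so. In H1299, 1 gene lay above and 26 below, against 20.5% and 22.8% of all genes. In DMS454 10 lay above and 9 below, against 18.3% and 18.4%, and in H1694 16 lay above and 4 below, against 17.4% and 17.6%.

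The H1299 result was examined with the libraries that stand apart. Removing both libraries numbered 1 left 5 genes called higher and 30 lower among the 40, where 27.0% and 27.9% of all genes were called. The control libraries left had a mean GC content of 47.91% and 47.84%, and the OE libraries left 49.25% and 49.22%. GC content and treatment therefore cannot be told apart in that fit. All 24 genes that fell with all libraries remained among the 30, and CDT1, MCM5, POLD1 and TK1 joined LIG1 among those called higher. The estimates of CDT1, POLD1 and TK1 were 0.51, 0.37 and 0.41 without those libraries, against 0.10, -0.01 and 0.11 with them. Gene GC content moved with the change. Over the 40 genes the log2 fold change in H1299 and the GC content of the gene's longest transcript had a Pearson r of 0.69 and a Spearman rho of 0.59, a description across genes that share their libraries, against an r of 0.15 in A549, -0.13 in DMS454 and 0.39 in H1694. After the trend of each library with GC content was removed, r was 0.30 in H1299, 32 of the 40 fell and 1 rose, where 21.5% of all genes were called lower and 3239 of 16192 higher, and all 24 remained among the 32. CDT1, POLD1 and TK1 then had estimates of -0.19, -0.30 and -0.14 and were called lower, so their direction in H1299 depends on this step. LIG1 stayed higher, at 0.32 (adjusted p = 7.1e-04), and MCM10 lower, at -0.57. Without control replicate 2, control replicate 3 or OE replicate 3, 15, 14 and 15 of the 40 were called lower, and the share of all genes called in these fits is not given.

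**Figure D4:**
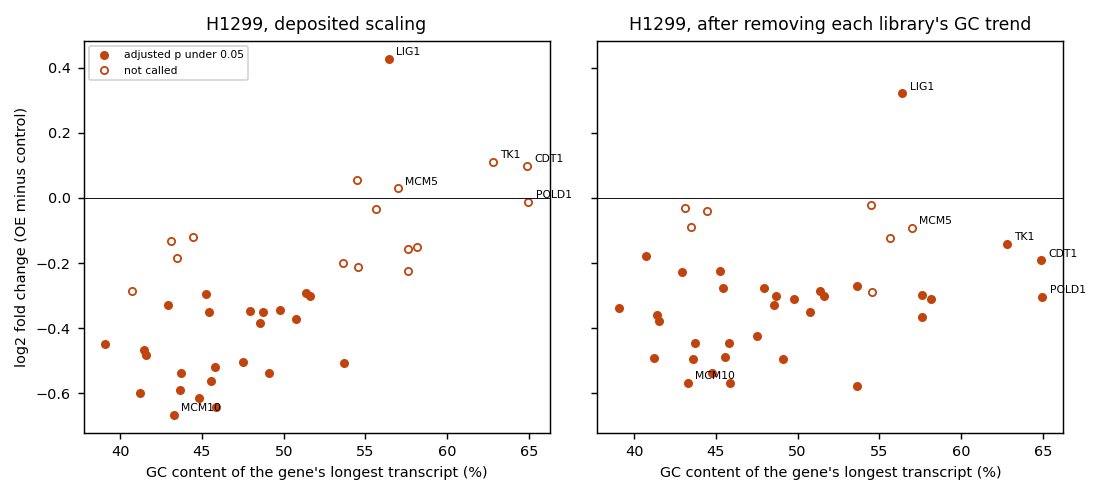
Log2 fold change in H1299 against the GC content (%) of each gene's longest transcript for the 40 genes, as deposited (left) and after each library's trend with GC content was removed (right), filled where the adjusted p was under 0.05. Genes above 60% GC, CDT1, POLD1 and TK1, lie near 0 on the left and below 0 on the right, while MCM10 lies low and LIG1 high in both panels.

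The small cell results were likewise recomputed without the library that stood apart. Without replicate 3 of the DMS454 libraries labelled CRISPR, 8 of the 40 rose and 15 fell, against 3 and 7 with it, where 16.7% and 18.2% of all genes were called. The 10 genes called with all libraries were among them, CDC45, CLSPN, MCM5, PCNA and POLA1 were added to those called higher, and CDT1, GINS2, GINS4, MCM2, MCM3, ORC6, POLE and RFC4 to those called lower. Without replicate 1 of the H1694 libraries labelled CRISPR, 9 rose and 2 fell, where 12.6% and 12.6% of all genes were called, and the 8 genes called with all libraries remained called. Without control replicate 1, 2 or 3 or replicate 2 labelled CRISPR, 2, 2, 3 and 2 genes were called higher in H1694, where the share of all genes is not given. Leaving out any other single DMS454 library left GINS1 as the only 1 called higher, with 5 called lower without control replicate 1 and 4 without each of the others. For these DMS454 fits the share of all genes is not given either.

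Whether the change differed between lines was tested directly, as the interaction of line and treatment. Between A549 and H1299, the change was lower in H1299 for 28 of the 40 genes and higher for 1, where 41.2% of 14578 genes differed, 22.7% lower and 18.5% higher. By role these were 12 of 16 helicase genes, 4 of 7 polymerase genes, 6 of 8 clamp and joining genes, 2 of 4 nucleotide genes and 4 of 5 of the chromatin, checkpoint and transcription genes. The difference was largest for MCM10, at -0.91 ± 0.12 (SE, adjusted p = 2.8e-05), followed by CLSPN at -0.83 ± 0.10, GINS2 at -0.78 ± 0.09, PRIM2 at -0.76 ± 0.13, UHRF1 at -0.73 ± 0.20 and CDC6 at -0.70 ± 0.08. Without both H1299 libraries numbered 1 the difference of UHRF1 was -0.41 (adjusted p = 1.4e-06), and those of the other 5 lay between -1.07 and -0.70. PCNA fell in both lines and the fall was larger in H1299, by -0.20 ± 0.07 (adjusted p = 0.026). That difference was lost without any 1 of 5 libraries (control replicate 3 or OE replicate 1 or 3 of A549, control replicate 2 or OE replicate 3 of H1299; adjusted p between 0.054 and 0.067) and was -0.08 after removal of the GC trend (adjusted p = 0.27). E2F8 likewise fell more in H1299, by -0.42 ± 0.10 (adjusted p = 0.0053). For LIG1 the difference of 0.30 ± 0.11 was at the threshold (adjusted p = 0.05), and was lost in each fit that left out 1 library other than the H1299 libraries numbered 1 (adjusted p between 0.072 and 0.12).

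Read gene by gene, 11 of the 40 rose in A549 and fell in H1299 (CDC6, CLSPN, GINS1, GINS2, GINS4, MCM4, MCM10, ORC1, POLA1, PRIM2 and RFC3). The share of all genes with this pattern is not given. Of the 11, CDC6, CLSPN, GINS2 and MCM10 held both calls under every alternative apart from the minimum fold change. The H1299 calls of the others were lost with the replicate number as a block (limma adjusted p between 0.065 and 0.12). E2F8, PCNA and RFC4 fell in both, PCNA being the only 1 of the 3 that DESeq2 also called in A549, and LIG1 rose in both. A further 7 rose in A549 without a call in H1299, 10 fell in H1299 without a call in A549, and 8 were called in neither. CDT1, POLA2, PRIM1 and RRM1 were called in none of the 4 lines.

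Between DMS454 and H1694, the change was higher in H1694 for 11 of the 40 genes and lower for 4, where 20.2% of 15460 genes differed, 9.81% higher and 10.4% lower. LIG1 differed most, by 0.37 ± 0.06 (SE, adjusted p = 6.8e-04), and TK1, MCM6, TYMS and RRM2 differed by 0.35 ± 0.07, 0.31 ± 0.07, 0.31 ± 0.06 and 0.27 ± 0.05. So 3 of the 4 nucleotide genes were higher in their change in H1694 than in DMS454. GINS1 differed in the other direction, by -0.33 ± 0.06 (adjusted p = 0.0015), as did CLSPN, RFC2 and UHRF1, by -0.26, -0.21 and -0.20.

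**Figure D5:**
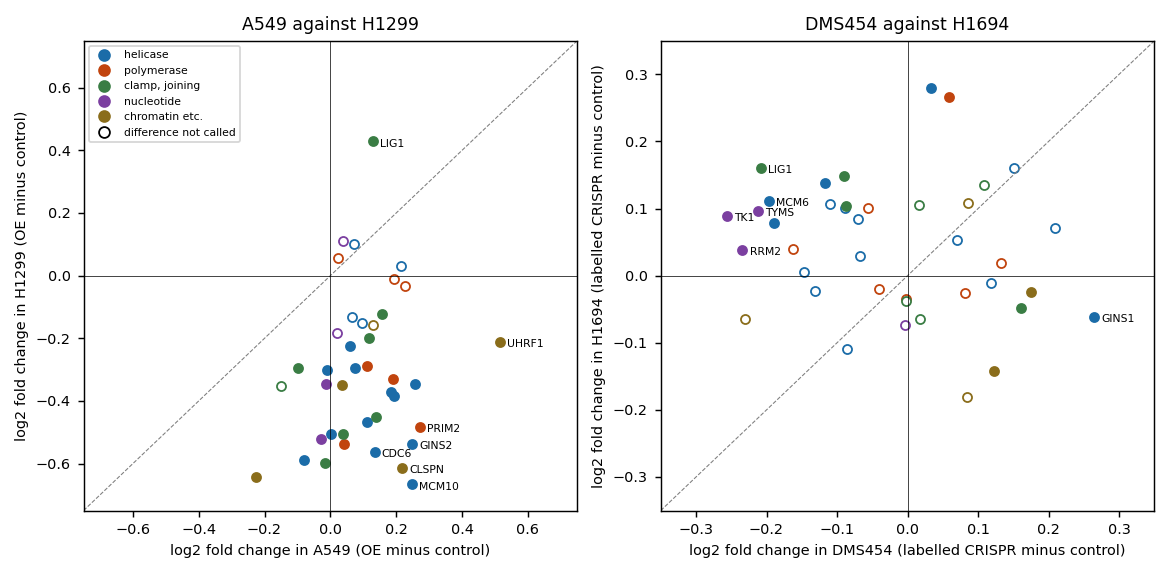
Log2 fold change of the 40 genes in A549 against H1299 (left) and in DMS454 against H1694 (right), with the line of equal change dashed and points filled where the difference between lines was called. On the left 28 of 29 filled points lie below the dashed line and LIG1 lies above it; on the right 11 lie above it and 4 below.

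Levels between genes were compared only per length, as normalized counts per kilobase of the principal transcript in the control libraries. PCNA was the highest of the 40 in A549 at 5226 ± 113 (SD, n = 3) and in DMS454 at 7868 ± 137. MCM7 was the highest in H1299 at 5310.4 ± 287, where PCNA was at 1882 ± 56.9, and RRM2 was the highest in H1694 at 5859 ± 68.9. MCM7 came second in the other 3 lines, at 3115 ± 62.8 in A549, 3921 ± 35.4 in DMS454 and 4093 ± 110.4 in H1694. Each of these gaps to the next gene was larger than the spread over the 3 libraries. POLA2 was the lowest in A549, H1299 and DMS454, at 56.9 ± 1.41, 56.8 ± 5.29 and 112 ± 6.96, and E2F8 was the lowest in H1694 at 63.2 ± 3.57. In DMS454 POLA2, MCM10 at 113 ± 3.46 and GINS3 at 115 ± 7.09 did not differ beyond their spread. The 6 genes of the MCM ring, whose proteins assemble in equal numbers, spanned 3.87-fold per length in A549, 7.43-fold in H1299, 7.12-fold in DMS454 and 3.85-fold in H1694, with MCM7 the highest in each.

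Other replication and nucleotide genes, 52 textbook genes outside the 40, went the same way in number in the overexpression lines. In A549 18 of 52 rose and 4 fell (34.6% and 7.69%, against 22.5% and 21.9% of all genes), and in H1299 1 rose and 24 fell (1.92% and 46.2%, against 13.5% and 15.3%), with medians of 0.07 and -0.27 beside 0.10 and -0.34 for the 40. CTPS1, which makes CTP, rose by 0.61 ± 0.04 in A549 (adjusted p = 1.9e-17) and fell by 0.75 ± 0.09 in H1299 (adjusted p = 6.3e-04). CAD, which starts pyrimidine synthesis, rose by 0.48 in A549. CDC25A, the phosphatase that activates S phase kinases, fell by 0.96 ± 0.08 in H1299 (adjusted p = 1.1e-04), and POLD4, a small polymerase subunit, was the only gene of the 52 that rose there, by 1.08 ± 0.20. In DMS454 4 of the 52 rose and 6 fell (7.69% and 11.5%, against 9.15% and 9.72% of all genes), and in H1694 5 rose and 5 fell (9.62% each, against 8.73% and 8.9%). E2F1 rose in both, by 0.25 ± 0.04 and 0.35 ± 0.04, and CCNE2, an S phase cyclin, fell in both, by 0.26 ± 0.06 and 0.29 ± 0.04. SAMHD1, which degrades deoxynucleotides, rose by 0.52 ± 0.08 in A549 and by 0.27 ± 0.05 in DMS454 and fell by 0.35 ± 0.05 in H1694.

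Mitosis genes and G1 regulators were counted beside them. Of 30 mitosis genes, 14 rose and 3 fell in A549 (against 22.5% and 21.9% of all genes), 1 rose and 11 fell in H1299 (against 13.5% and 15.3%), 1 rose and 9 fell in DMS454 (against 9.15% and 9.72%), and 2 rose and none fell in H1694 (against 8.73% and 8.9%). The G1 regulators did not move one way: 4 rose and 4 fell of 9 tested in A549, 2 and 1 of 10 in H1299, 1 and 2 of 9 in DMS454, and 1 and 4 of 10 in H1694. The 4 named next were picked from them after their values were seen. MYC rose by 0.36 ± 0.04 in A549 and fell by 0.60 ± 0.10 in H1299. It also fell by 0.25 ± 0.04 in DMS454 and by 0.71 ± 0.17 in H1694. The kinase inhibitor CDKN1B fell by 0.43 ± 0.05 in A549 and rose by 0.49 ± 0.09 in H1299, and CDKN2C fell by 0.45 ± 0.06 in A549 and rose by 0.45 ± 0.13 in H1299. In H1694 CDKN1A, the p21 gene, fell by 1.39 ± 0.05, from a mean of 7540.3 to 2887 normalized counts. The part of these 4 genes in the changes of the replication genes was not tested.

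Some calls held under every alternative analysis run for them, apart from the minimum fold change, and with any 1 library left out. In A549 these were CDC6, CLSPN, GINS2, GINS4, MCM4, MCM5, MCM10, POLA1, POLD1, POLE, PRIM2, RFC3, RFC5 and UHRF1, 14 of the 22 called. In H1299 they were CDC6, CLSPN, DSCC1, E2F8, FEN1, GINS2, MCM10, ORC6 and RRM2, 9 of 25. In DMS454 they were GINS1, MCM4, RRM2 and TK1, 4 of 10, and in H1694 MCM7 and POLD1, 2 of 8. Of the differences between A549 and H1299, 22 of 29 held, and of those between DMS454 and H1694, 10 of 15, the exceptions being LIG1, MCM3, MCM7, PCNA, PRIM1, RFC5 and UHRF1 in the first pair and POLD1, RFC2, RFC3, RFC4 and UHRF1 in the second. DESeq2 did not call CHAF1A, E2F8, MCM2 and RFC4 in A549, RFC2 and UHRF1 in DMS454, or CDC45, CLSPN and RFC4 in H1694. Calls lost by leaving out 1 library had adjusted p of at most 0.19 in each line, and these fits rest on fewer libraries.

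In the authors' deposited table, at their adjusted p under 0.05, 16 of the 40 were positive and 1 negative in A549, and 1 positive and 24 negative in H1299. Shares of all genes at the authors' threshold are not given for any line. In the authors' deposited tables of DMS454 and H1694 the library labelled control is the numerator, so 7 positive and 1 negative in DMS454, and 0 positive and 5 negative in H1694, are falls and rises in the direction used here.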

How the data were processed

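RNA was measured in 24 libraries of 4 lung cancer cell lines, 3 per group, from strand-marking libraries, per the labels' protocols. The submitters' processing notes name CASAVA, FastQC, Trim Galore, STAR and DESeq2 with the hg38 build. For the counter and annotation the labels give nothing. The deposited tables hold, per the file headers, normalized values per library and their mean (a signal, gene counts divided by 1 size factor per library), log2 fold changes with standard errors, a test statistic (a score), p-values and adjusted p-values. Every deposited signal value was a whole multiple of what 1 read is worth (100% within 0.01 of a read), so whole reads were recovered. Depth was 12704476 to 31770858 reads per library, and 3 libraries per group limit the precision. Gene symbols matched 99.97% of identifiers, and 45 rows of the DMS454 and H1694 tables that repeat genes shared by the X and Y chromosomes were left out.

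In this re-analysis, log2(normalized count + 1) was fitted per line with limma 3.58.1 (R 4.3.3; trend and robust settings) over genes with a mean of at least 10 in 1 group, with Benjamini-Hochberg adjustment over all genes and a threshold of 0.05. Fold changes on this scale understate those of low genes. Differences between lines were tested as the interaction of line and treatment. The scripts were tested on simulated data. Alternatives were edgeR 4.0.16 (quasi-likelihood) and DESeq2 1.42.0 on the recovered reads, TMM scaling, no filter, a minimum mean of 50, a pseudocount of 5, a minimum absolute log2 fold change of 0.5, a replicate block, leaving out each library or both H1299 libraries numbered 1, and, added after seeing the data, removal of each library's trend with GC content. On recovered reads edgeR called 7456 genes in A549, 4671 in H1299, 3494 in DMS454 and 3078 in H1694.

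The 40 genes, the other lists and the tests were chosen with earlier results of these data known. Library values are given for up to 6 called genes per direction and line, covering each role, for the 6 largest differences between lines, and for RRM2, PCNA, MCM10 and E2F8. Of the other replication genes, up to 4 called per line with the largest change could be named. The G1 regulators, and CTPS1, E2F1 and CCNE2 in lines where other genes changed more, were named after their values were seen.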

Additional observations from a re-analysis of the deposited data

Results flagged for a closer look

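Results are listed here because the change in RNA with treatment differed between 2 lines, by a test of the difference itself (limma interaction of line and treatment, 3 libraries per group, Benjamini-Hochberg adjustment over all genes). Between the overexpression lines, 28 of the 40 genes changed lower in H1299 than in A549 and 1, LIG1, higher. The 6 genes with the largest differences, H1299 minus A549 on the log2 scale, were MCM10 at -0.91, CLSPN at -0.83, GINS2 at -0.78, PRIM2 at -0.76, UHRF1 at -0.73 and CDC6 at -0.70. Without both H1299 libraries numbered 1, which stood apart in GC content, the estimate of UHRF1 in H1299 went from -0.21 to 0.10 and its difference between the lines was -0.41. GC content lined up with treatment in H1299 in that fit. With all libraries and each library's GC trend removed, the UHRF1 difference was -0.79 (limma adjusted p = 0.0017). The differences of LIG1 and PCNA between these lines did not hold with some single libraries left out.

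Between the small cell lines, 11 of the 40 changed higher in H1694 than in DMS454 and 4 lower. The differences, H1694 minus DMS454, were 0.37 for LIG1, 0.35 for TK1, 0.31 for MCM6, 0.31 for TYMS and 0.27 for RRM2, and -0.33 for GINS1. In both of these lines HEPACAM2 RNA was higher in the libraries labelled CRISPR.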

How the results depend on the processing

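A minimum absolute log2 fold change of 0.5 left 1 gene higher and 0 lower in A549, 0 and 11 in H1299, 0 and 0 in DMS454 and 0 and 0 in H1694. DESeq2 called 1 gene lower in A549, 1 higher in DMS454 and 0 lower in H1694. Over all genes it called 2954 of 16707 lower in A549, 1355 of 18868 higher in DMS454 and 1158 of 17780 lower in H1694. With edgeR 0 were lower in H1694, where 1386 of 17780 genes were called lower. Without both H1299 libraries numbered 1, 5 genes were higher in H1299 and 4 changed higher in H1299 than in A549, and the estimate of POLD1 was 0.37 in H1299 and 0.18 between A549 and H1299, the opposite sign to the value with all libraries. GC content lined up with treatment in H1299 in that fit. With the GC trend removed, the sign also turned for CDT1 (-0.19 in H1299, -0.26 between the lines) and TK1 (-0.14 and -0.20). The replicate numbers do not pair the samples: same-numbered libraries had correlations of deviations between -0.065 and -0.014 in A549, -0.538 and -0.181 in H1299, 0.01 and 0.027 in DMS454 and -0.085 and 0.123 in H1694. With the replicate number as a block, 0 genes were higher and 9 lower in H1299, and 0 changed higher in H1299 than in A549. The block ended the called differences of LIG1, MCM3, MCM7, PCNA, PRIM1, RFC5 and UHRF1 between these lines (limma adjusted p between 0.056 and 0.17). With 1 library left out, the counts ranged from 0 to 1 higher and 14 to 26 lower in H1299, from 1 to 8 and 4 to 15 in DMS454, from 2 to 9 and 0 to 2 in H1694, and from 0 to 1 for genes changing higher in H1299 than in A549. In A549 they ranged from 16 to 19 and from 2 to 3. These fits rest on fewer libraries, and why the counts moved was not tested.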
